A study of Mus musculus with 4 samples.

Results

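The aminoacyl-tRNA synthetase genes were taken from the deposited tables by symbol: a single letter for the amino acid followed by ars, with or without a closing 2, together with Farsa, Farsb, Eprs and Tarsl2. This gave 38 of the 24421 genes in the tables, 21 encoding cytosolic and 17 encoding mitochondrial enzymes. A closing 2 in the symbol marks the mitochondrial gene, except for Tarsl2, a cytosolic threonyl-tRNA synthetase paralogue, which was kept with the cytosolic genes. Gars and Kars each encode both forms of their enzyme and were counted as cytosolic, following their symbols.

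Aminoacyl-tRNA synthetases attach each amino acid to its own tRNA and so set the fidelity of translation. Cytosolic and mitochondrial translation use largely separate sets of enzymes, all encoded in the nucleus. Several cytosolic enzymes are held together with the scaffold proteins AIMP1, AIMP2 and EEF1E1 in the multi-synthetase complex. Recessive variants in many mitochondrial synthetase genes cause disorders of brain and muscle, and dominant variants in some cytosolic ones cause inherited peripheral neuropathy. Uncharged tRNA activates the kinase GCN2 and, through phosphorylation of eIF2α, the transcription factor ATF4, whose targets include many cytosolic synthetase genes.

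The study compared excitatory with inhibitory neurons of mouse brain by total RNA sequencing, with 2 libraries of each. The excitatory libraries came from αCaMKII-Cre and the inhibitory ones from vGAT-IRES-Cre transgenic males aged 3 to 5 months, both lines kept by crossing to wild-type C57Bl/6J. Cells were picked by hand for their fluorescence, 100 to a library, so each group holds whichever cells had the driver active; the sources used here give neither brain region nor reporter. Whether the paired libraries came from different mice is not labelled; p-values therefore reflect library-to-library spread, which may be technical.

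Each library is named below by its label and number. Values are the authors' deposited log2 of normalized reads plus 1, and a difference subtracts the inhibitory from the excitatory mean of these values. Per library, 12609 to 12798 genes were above 0, from an estimated 6.2e+07 to 74200000 reads. The median tested gene was 0.52 (1.43-fold) higher in excitatory libraries, so each difference is also given after scaling every library by the median of its gene ratios, called the scaled difference. Slc32a1, which encodes vGAT, was listed at 0 in all 4 libraries, and Gad1 and Gad2, which make GABA, did not differ past the threshold on the deposited scale (adjusted p = 0.0649 and 0.824). After scaling Gad1 was higher in inhibitory libraries (-1.02, adjusted p = 0.00768) and Gad2 did not pass (-0.62, adjusted p = 0.137). Mbp, a myelin gene of oligodendrocytes, had the highest value of any gene in every library, and 21.331 in all 4. The summed scaled level of the 10 microglial markers was 24200 and 28000 in excitatory and 87400 and 67100 in inhibitory libraries. That of the 8 oligodendrocyte markers was 2420000 and 2480000 against 3410000 and 3210000, and that of the 8 astrocyte markers 1670000 and 1730000 against 1580000 and 1400000. Of 7 endothelial markers, 5 were listed at 0 in all libraries (Cldn5, Cdh5, Tek, Kdr and Esam). The part of these other transcripts in the differences described here was not tested.

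Promoter sequence was available in RefSeq (GRCm38.p6) for 28 of the 38 genes, as windows of 250 bases before to 50 after the transcript start. A pair of short motifs was searched on both strands: TGATGNAA, a C/EBP-ATF response element of the kind ATF4 recognises (CARE), and the motif of the nuclear respiratory factor NRF1. TGATGNAA was present in 1304 of 32851 windows of all genes (3.97%). It was present in 5 of 14 cytosolic synthetase windows (35.7%) and in 0 of 15 mitochondrial ones. A match of each of the 5 genes is shown, with that of the asparagine synthetase gene Asns, because the values of these genes are set against those of Atf4 further on. Capitals mark the motif, in the direction of the gene, and a match on the opposite strand reads as its reverse complement.
Aars, chr8:111033840-111033869, plus strand: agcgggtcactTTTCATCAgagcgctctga
Gars, chr6:55037960-55037989, plus strand: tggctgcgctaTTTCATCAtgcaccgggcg
Iars, chr13:49682126-49682155, plus strand: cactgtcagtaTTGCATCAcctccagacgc
Tars, chr15:11399655-11399684, minus strand: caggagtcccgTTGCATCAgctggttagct
Yars, chr4:129189895-129189924, plus strand: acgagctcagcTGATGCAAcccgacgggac
Asns, chr6:7693214-7693243, minus strand: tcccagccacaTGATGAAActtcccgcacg
Counting the start as 1, the first capital of the matches shown lay at 10 in Aars, -30 in Gars, 8 in Iars, -15 in Tars and 4 in Yars. In Asns it lay at -23.

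The NRF1 motif, whose letters are the capitals of the lines that follow, was present in 1512 of the 32851 windows (4.6%), in 3 of 14 cytosolic and in 2 of 15 mitochondrial synthetase windows. These 5 genes share the motif across both compartments, and their matches follow.
Farsb, chr1:78488850-78488879, minus strand: cccgcatgtgGCGCAGGCGCagtgtccacg
Kars, chr8:112011384-112011413, minus strand: gcccagcactGCGCCTGCGCagcgagagtc
Iars2, chr1:185329374-185329403, minus strand: ccgccccggaGCGCGTGCGCagttcctcgc
Mars2, chr1:55237169-55237198, plus strand: ccgtccagctGCGCACGCGCcctttcccgt
Tars, chr15:11399808-11399837, minus strand: ggggaagagtGCGCTTGCGCgcctcactac
Tars, chr15:11399614-11399643, minus strand: tggccacgtgGCGCACGCGCagtgcggaat
Farsb, Kars and Iars2 were each higher in inhibitory libraries, Tars did not pass the test, and Mars2 was not tested. A match describes the letters only and is no evidence of binding.

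Across the whole set, some synthetase genes were higher in excitatory and others in inhibitory libraries, and the set did not move in one direction. Among cytosolic genes well above 0 in all libraries, Mars (15.1-fold) and Rars (3.46-fold) were higher in excitatory and Kars (5.08-fold) and Farsb (2.88-fold) in inhibitory libraries; Cars, Farsa and Lars were at or near 0 in a whole group. Among mitochondrial genes, Ears2 was 6.15-fold higher in excitatory and Iars2 6.73-fold higher in inhibitory libraries. Folds are on the scale of the deposited value with 1 added, and in pooled cells a smaller share of cells of a type and less RNA per cell cannot be told apart.

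The difference was tested with limma over 13619 genes that reached a value of 1 in at least 2 libraries. P-values were adjusted by the Benjamini-Hochberg method, with 0.05 as the threshold. Of the 38 genes, 35 passed this filter. Tarsl2 and Nars2 (asparagine, mitochondrial) were listed at 0 in all libraries, and Mars2 (methionine, mitochondrial) was listed at 0 except for 2.41 in inhibitory 2, from an estimated 5 reads. A gene that reaches 1 in a single group had to differ, so counts are given for the 26 genes that reached 1 in both. Of these, 9 were higher in excitatory and 4 in inhibitory libraries, with 66% of the 11168 genes of that kind called in either direction (44.2% and 21.8%). After scaling the counts were 7 and 6, where 58.9% of all such genes were called (29% and 29.9%). Cars and Pars2 are in these counts, though each met the filter through its higher group by itself. In the lower group each reached 1 in a single library, from an estimated 3 reads for Cars and 1 for Pars2. The median difference of the 26 genes was 0.64 and their median scaled difference 0.099, beside 0.52 and -0.0033 for all such genes. Of all 35 tested genes, 11 were higher in excitatory and 10 in inhibitory libraries, and 9 and 12 after scaling, where 71.8% of all tested genes passed (45% and 26.8%) before and 65.9% (32.4% and 33.5%) after scaling. The values of the 2 groups did not overlap for any of the 35 tested members apart from 4 (Qars, Tars2, Vars and Yars2). Most tested genes of the tables likewise did not overlap, at 86.4% (54.6% higher in excitatory, 31.8% in inhibitory libraries).

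**Figure D1:**
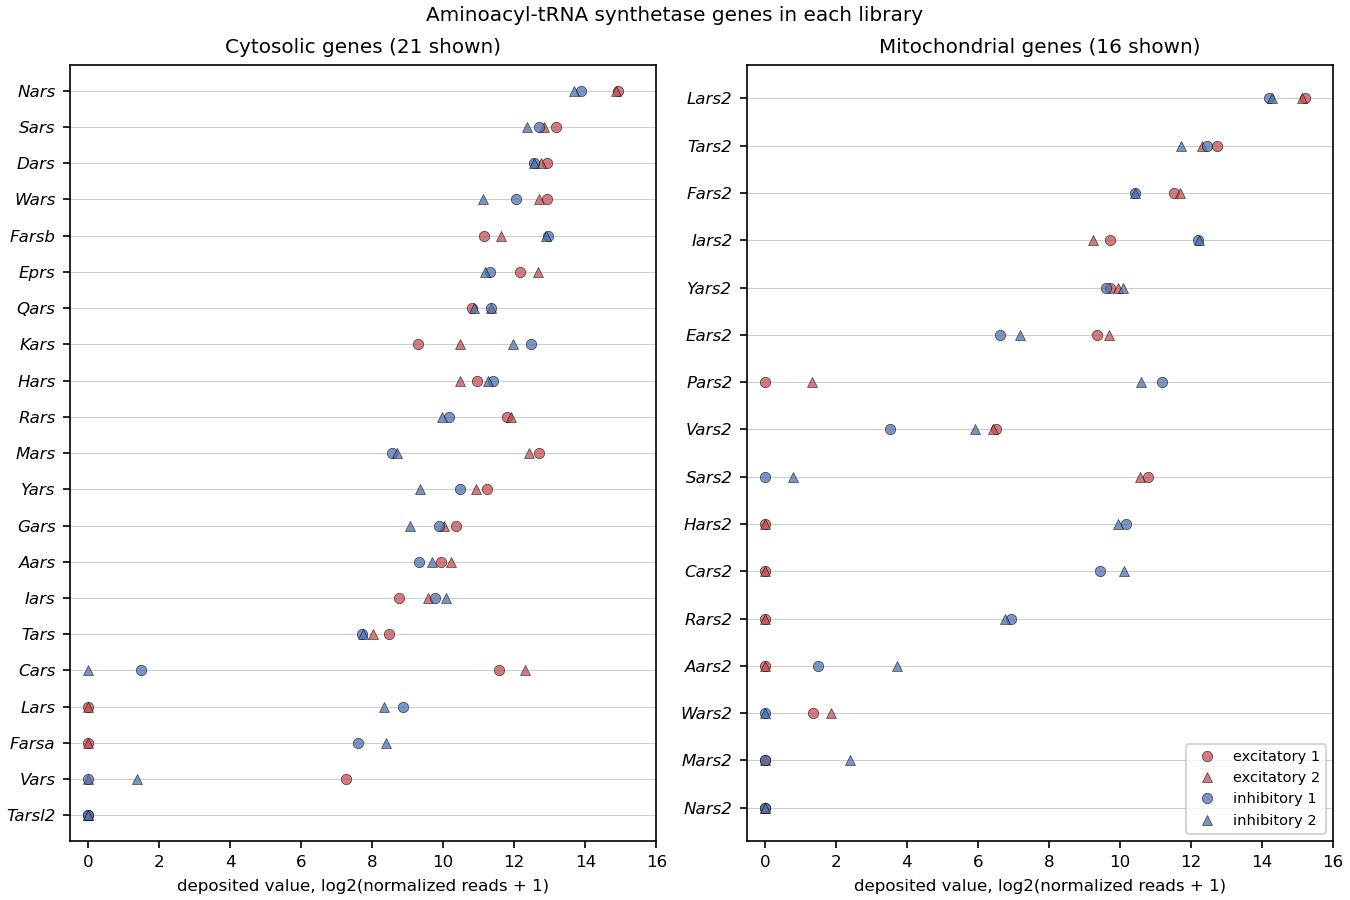
Deposited value of the synthetase genes (x axis, log2 of normalized reads plus 1) in each library, cytosolic genes in the left panel and mitochondrial ones in the right, ordered by mean. Each symbol is 1 library; Lars2 and Nars have the highest values, and Cars2, Hars2 and Rars2 stand at 0 in both excitatory libraries and above 6 in both inhibitory ones.

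By compartment, 18 cytosolic genes reached 1 in both groups, of which 6 were higher in excitatory and 2 in inhibitory libraries (4 and 4 after scaling). Of 8 mitochondrial genes, 3 were higher in excitatory and 2 in inhibitory libraries, before and after scaling alike. Their median differences were 0.64 and 0.68, and 0.099 and 0.14 after scaling. The share that passed was 44.4% of the cytosolic and 62.5% of the mitochondrial genes, and no difference between the compartments was tested. The spread between the 2 libraries of a group was like that of other genes: the median gap over the 23 members above 0 in all libraries was 0.325 in excitatory and 0.294 in inhibitory libraries, beside 0.29 and 0.288 for all 10554 such genes.

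**Figure D2:**
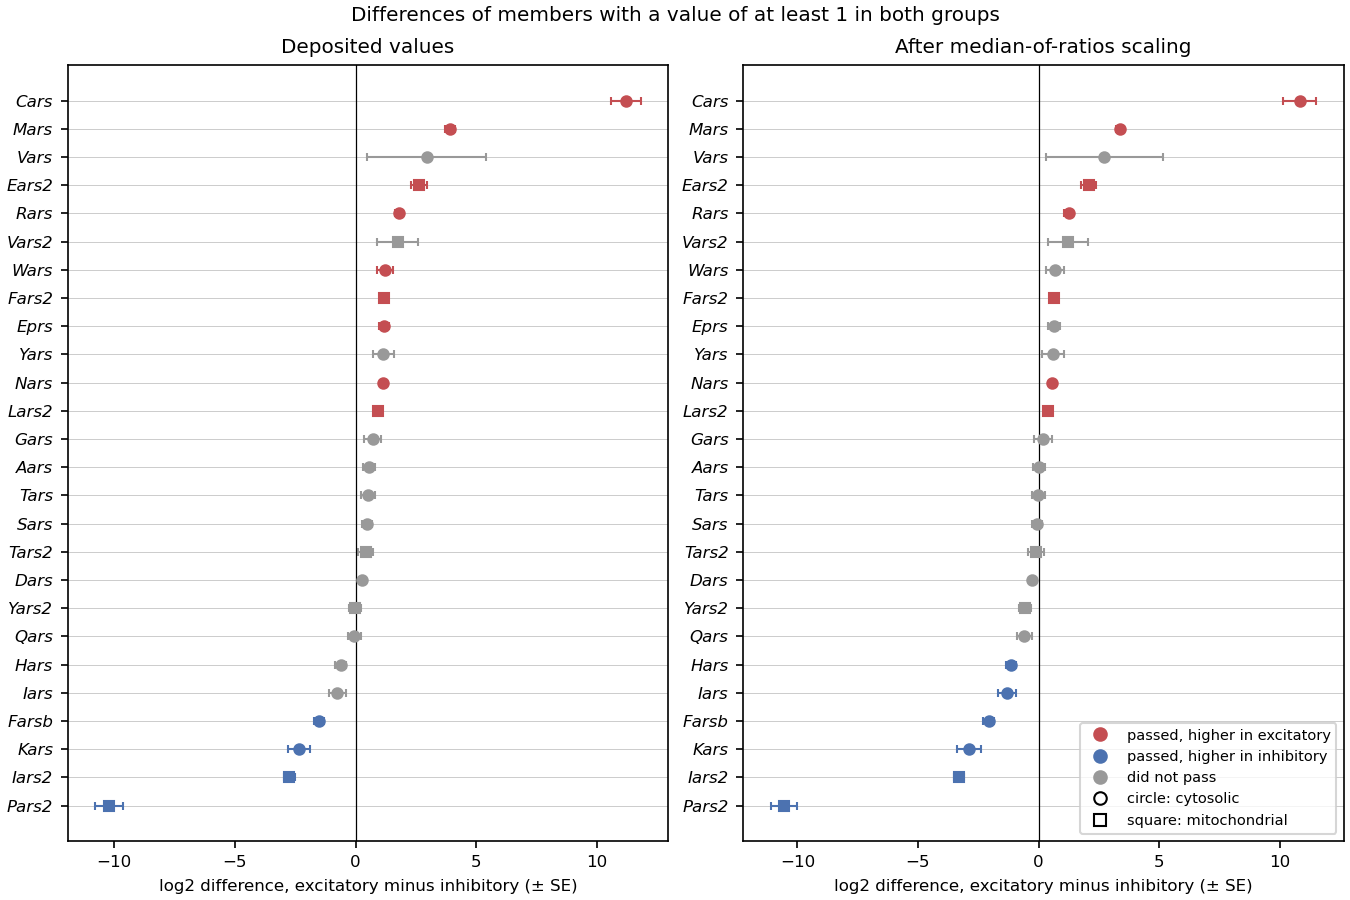
Difference between excitatory and inhibitory libraries (x axis, log2, ± SE) for the 26 synthetase genes that reached a value of 1 in both groups, from the deposited values (left) and after scaling (right); colour gives the limma call and shape the compartment. Mars, Rars, Ears2 and Cars lie to the right and Farsb, Kars, Iars2 and Pars2 to the left in both panels, while Eprs and Wars pass on the left alone and Hars and Iars on the right alone.

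Mars (chromosome 10, 127296221 to 127311786, minus strand, mm10) encodes the cytosolic methionyl-tRNA synthetase, which charges both initiator and elongator tRNA, and the enzyme sits in the multi-synthetase complex. Its deposited values were 12.69 and 12.40 in excitatory 1 and 2 and 8.56 and 8.71 in inhibitory 1 and 2. Both excitatory libraries lay far above both inhibitory ones. The difference was 3.92 ± 0.20 (SE, n = 2 per group; adjusted p = 0.000142) and the scaled difference 3.37 (10.4-fold, adjusted p = 0.000209). Mars shares 68 exonic bases with Ddit3 on the opposite strand, which was itself higher in excitatory libraries (1.59, scaled 1.05). The library kits are not described as marking strand, so reads from shared bases cannot be told apart.

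Rars encodes the arginyl enzyme of the same complex. Its deposited values were 11.80 and 11.90 in excitatory and 10.15 and 9.96 in inhibitory libraries, with no overlap. The difference was 1.79 ± 0.17 (adjusted p = 0.000842) and the scaled difference 1.25 (adjusted p = 0.00438). Eprs, which joins the glutamyl and prolyl enzymes in a single protein, had deposited values of 12.17 and 12.66 against 11.32 and 11.17. Its groups did not overlap, but the call depended on the scale: the difference was 1.17 ± 0.22 (adjusted p = 0.00747) and the scaled difference 0.63 (adjusted p = 0.0804). It was also lost without excitatory 2 (adjusted p = 0.0540), inhibitory 1 (0.113) or inhibitory 2 (0.131).

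Kars (chromosome 8, 111993443 to 112011323, minus strand) encodes the lysyl enzyme of both compartments. Its deposited values were 9.28 and 10.46 in excitatory and 12.46 and 11.97 in inhibitory libraries. The inhibitory libraries were higher without overlap, though the 2 excitatory libraries stood further apart than for any other gene of the complex. The difference was -2.35 ± 0.45 (adjusted p = 0.00833) and the scaled difference -2.89 (7.40-fold higher in inhibitory, adjusted p = 0.00667). The call was lost without excitatory 1 (adjusted p = 0.0786), inhibitory 1 (0.171) or inhibitory 2 (0.130). The head-to-head neighbour Terf2ip, a telomere-binding protein gene whose start lies 75 bases away, had the opposite pattern, with deposited values of 10.76 and 10.65 against 2.84 and 3.39.

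The other enzymes of the complex include the leucyl one: Lars was at 0 in both excitatory libraries, with deposited values of 8.88 and 8.33 in inhibitory ones. Iars, for isoleucine, had 8.75 and 9.58 against 9.78 and 10.08, groups that did not overlap but lay close. The scaled difference of -1.31 passed (adjusted p = 0.0325) and the unscaled one of -0.76 did not (0.113). Dars (aspartate) had a difference of 0.27 that turned to -0.27 after scaling (adjusted p = 0.116 and 0.105), and Qars (glutamine) overlapped between the groups, with a difference of -0.049 (adjusted p = 0.887). Of the 7 enzymes of the complex that reached 1 in both groups, 3 were thus higher in excitatory and 1 in inhibitory libraries, and 2 and 2 after scaling. The share called was 57.1% on both scales, beside 66% of all such genes before scaling and 58.9% after it. The scaffold genes Aimp1, Aimp2 and Eef1e1 had differences of 0.74, 0.70 and 0.58 (adjusted p = 0.0286, 0.0298 and 0.100), and none passed after scaling (0.20, 0.16 and 0.034). Aimp1 passed when excitatory 2 was left out (adjusted p = 0.0312) but not without any other library (0.0570 to 0.186), and Aimp2 in none of the 4 such fits (0.0709 to 0.221). Within the complex, Mars and Rars thus lay on the excitatory side and Kars on the inhibitory side under both scales. Lars entered the test through its inhibitory pair by itself, so it could differ in that direction alone.

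Phenylalanyl-tRNA synthetase of the cytosol is built from the products of Farsa and Farsb in equal number. Farsb (chromosome 1, 78417975 to 78488897, minus strand) had deposited values of 11.15 and 11.62 in excitatory and 12.94 and 12.89 in inhibitory libraries. The inhibitory libraries were higher without overlap, by 1.53 (difference -1.53 ± 0.20, adjusted p = 0.00237), a call lost without inhibitory 1 (adjusted p = 0.0858) or inhibitory 2 (0.0816). The scaled difference was -2.07 (adjusted p = 0.0016). Farsa was at 0 in both excitatory libraries, with deposited values of 7.60 and 8.40 in inhibitory ones. Farsa entered the test through that group by itself, so it could differ in that direction alone and adds nothing to the call of Farsb. Per kilobase of exon Farsb stood at 2993 and 2893 in inhibitory libraries and Farsa at 42.6 and 74.1.

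Nars, for asparagine, had deposited values of 14.93 and 14.87 in excitatory and 13.88 and 13.68 in inhibitory libraries. Per kilobase of exon it was the highest synthetase gene in all 4 libraries, at linear values of 7148 and 6885 against 3464 and 3022. With the length of the longest coding transcript in place of all exons, a choice made after seeing the data, Lars2 stood above it in inhibitory 2. The difference of Nars was 1.12 ± 0.10 (adjusted p = 0.000758) and the scaled difference 0.57 (adjusted p = 0.0144), with the call lost without excitatory 1 (adjusted p = 0.0508). Wars, the tryptophanyl enzyme known as an interferon-induced gene, had deposited values of 12.91 and 12.70 against 12.04 and 11.13. Its difference of 1.22 ± 0.33 passed (adjusted p = 0.0257), but not after scaling (0.68, adjusted p = 0.164) and not without excitatory 1 (adjusted p = 0.274), excitatory 2 (0.222) or inhibitory 2 (0.0781).

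Cars (chromosome 7, 143557230 to 143600090, minus strand), for cysteine, had the widest gap of all tested members. It had deposited values of 11.58 and 12.32 in excitatory libraries and of 1.501 and 0 in inhibitory ones, where the estimate was 3 and 0 reads against 2359 and 4148. The difference was 11.20 ± 0.63 and the scaled difference 10.82. Cars met the filter through its excitatory pair by itself and reached 1 among inhibitory libraries in inhibitory 1 alone, so its p is not given. Cars2, the mitochondrial gene for the same amino acid, had the reverse pattern: it was at 0 in both excitatory libraries, with deposited values of 9.43 and 10.13 in inhibitory ones, from an estimated 956 and 1277 reads. Serine did not show this exchange, since Sars lay between 12.37 and 13.18 in all 4 libraries. Sars2 nevertheless had 10.80 and 10.57 in excitatory libraries against 0 and 0.79 in inhibitory ones, from an estimated 1374 and 1237 reads against 0 and 1. Its head-to-head neighbour Mrps12, a mitochondrial ribosomal protein gene starting 172 bases away, was present in every library at 11.64 and 11.60 against 10.75 and 10.78.

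Among the remaining cytosolic genes the differences did not hold up against the spread between libraries on the deposited scale. Hars (histidine) had values of 10.94 and 10.48 against 11.39 and 11.26, with a difference of -0.62 (adjusted p = 0.0594) that passed after scaling (-1.16, adjusted p = 0.00870) and with a mean of at least 5 (adjusted p = 0.0462). Yars (tyrosine), Gars (glycine), Aars (alanine) and Tars (threonine) had differences of 1.15, 0.72, 0.56 and 0.53 (adjusted p = 0.0629, 0.128, 0.101 and 0.169). After scaling these were 0.61, 0.18, 0.019 and -0.015, so that Tars changed sign. Sars likewise had a difference of 0.47 that turned to -0.074 after scaling. Vars (valine) was listed at 0 in excitatory 2 and inhibitory 1 and had 7.25 in excitatory 1 and 1.37 in inhibitory 2. Of the 6 genes in which dominant variants are linked to inherited neuropathy (Aars, Gars, Hars, Mars, Wars and Yars), Mars and Wars were higher in excitatory libraries. After scaling Mars was higher and Hars lower there. The share called, 33.3% on both scales, lay below the 66% of all genes that reached 1 in both groups, and the 58.9% after scaling.

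Lars2 (chromosome 9, 123366927 to 123462666, plus strand) encodes the mitochondrial leucyl-tRNA synthetase. Its deposited values were 15.22 and 15.12 in excitatory and 14.19 and 14.28 in inhibitory libraries. The groups were narrow and did not overlap, with a difference of 0.93 ± 0.087 (adjusted p = 0.000737) and a scaled difference of 0.39 (1.31-fold, adjusted p = 0.00955). Per kilobase of exon Lars2 alone made up 57.6% and 58.0% of the summed level of the mitochondrial genes in excitatory and 35.8% and 41.0% in inhibitory libraries. Summed per kilobase, the cytosolic genes stood at 3.33 and 3.47 times the mitochondrial ones in excitatory and at 3.12 and 2.85 times in inhibitory libraries. Without Lars2 these ratios were 7.87 and 8.26 against 4.87 and 4.83. The ratio is taken within a library and does not depend on its scaling, and without Lars2 the excitatory libraries thus held less mitochondrial relative to cytosolic synthetase transcript. With 2 libraries a group no exact test of a ratio can pass 0.05, and none was made.

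Fars2, for phenylalanine, had deposited values of 11.52 and 11.70 against 10.44 and 10.42 in excitatory and inhibitory libraries. The difference was 1.19 ± 0.17 (adjusted p = 0.00287) and the scaled difference 0.65 (adjusted p = 0.0290). Ears2, for glutamate, had 9.37 and 9.69 against 6.62 and 7.19, again without overlap. Its difference was 2.62 ± 0.32 (adjusted p = 0.00186) and its scaled difference 2.08 (adjusted p = 0.00451), with the call lost without excitatory 1 (adjusted p = 0.0597) or excitatory 2 (0.0683). Ubfd1, which starts 88 bases from Ears2 on the opposite strand and shares 89 exonic bases with it, had a difference in the same direction (1.65).

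Iars2 (chromosome 1, 185284726 to 185329396, minus strand), for isoleucine, had deposited values of 9.71 and 9.23 in excitatory and 12.21 and 12.24 in inhibitory libraries. The inhibitory libraries were almost equal and far above both excitatory ones. The difference was -2.75 ± 0.23 (adjusted p = 0.000516) and the scaled difference -3.29 (9.80-fold higher in inhibitory, adjusted p = 0.000326). Of its exonic bases 22.9% (2034 bases) are shared with Rab3gap2 on the opposite strand, a regulator of synaptic Rab3, whose difference was -3.23. Reads of the shared stretch cannot be told apart. Pars2, for proline, had 0 and 1.32 in excitatory libraries against 11.18 and 10.59, a difference of -10.23 ± 0.57. It rested on an estimated 0 and 1 reads against 3228 and 1766. Like Cars, Pars2 met the filter through its higher group by itself, and its p is not given.

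Several mitochondrial genes were listed at 0 in both excitatory libraries. Besides Cars2 they included Hars2 (10.18 and 9.96 in inhibitory libraries), Rars2 (6.95 and 6.76), Aars2 (1.51 and 3.72) and Mars2, which charge tRNA with histidine, arginine, alanine and methionine. The estimated reads behind the low values of Aars2 were 3 and 14, too few to set a level. With Farsa and Lars, 5 members were at 0 in both excitatory libraries while reaching at least 5 in both inhibitory ones, and 0 members had the reverse. Of all genes in the tables, 2.99% showed the first and 3.09% the second pattern, and of the 10020 genes with at least 5 in both inhibitory libraries 7.3% were at 0 in both excitatory ones, beside 7.5% for the reverse. A value of 0 in a library of 100 cells says that no read was listed and not that the gene is silent. With values below 2 taken as near 0, Pars2 joined the first pattern, which then held 6 members, and Cars and Sars2 made up the second. Of the 13619 tested genes, 1060 showed the first and 975 the second of these wider patterns.

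Neighbouring genes on the opposite strand did not all go the way of the synthetase gene beside them. On deposited values Ddit3 (beside Mars), Ubfd1 (Ears2), Rab3gap2 (Iars2), Orc3 (Rars2) and Mrps12 (Sars2) differed in the same direction. Terf2ip (Kars) and Nrn1 (Fars2) differed in the other direction. Orc3, a replication origin gene that starts 13 bases from Rars2, was above 0 in all libraries (10.57 and 10.57 against 12.61 and 12.29). Hars and Hars2 start 197 bases apart on opposite strands and share 195 exonic bases, yet Hars had at least 10.48 in every library while Hars2 was listed at 0 in excitatory ones.

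The remaining mitochondrial genes did not pass the test or rested on few reads. Tars2 (threonine) had deposited values of 12.72 and 12.30 against 12.46 and 11.72, groups that overlapped, and its difference of 0.42 turned to -0.12 after scaling. Yars2 (tyrosine) also overlapped, with 9.72 and 9.94 against 9.61 and 10.08 (difference -0.016, adjusted p = 0.961). Vars2 (valine) had 6.50 and 6.43 against 3.52 and 5.91, and its difference of 1.75 passed without inhibitory 2 (adjusted p = 0.0226) but not with all libraries (0.127). Wars2 (tryptophan) had 1.37 and 1.86 in excitatory libraries, from an estimated 1 and 2 reads, and was listed at 0 in both inhibitory ones. Wars2, like Aars2 and Sars2, entered the test through a single group, and its p is not given.

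The synthetases fall into 2 structural classes with unrelated catalytic folds. Of 13 class I genes that reached 1 in both groups, 6 were higher in excitatory libraries (Cars, Ears2, Lars2, Mars, Rars and Wars) and 1, Iars2, in inhibitory ones, beside 44.2% and 21.8% of all such genes. Of 12 class II genes, 2 were higher in excitatory (Fars2 and Nars) and 3 in inhibitory libraries (Farsb, Kars and Pars2). After scaling the counts were 5 and 2 for class I and 2 and 4 for class II. Eprs, which carries a domain of each class, was left out of both.

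Genes for the same amino acid were compared as the log2 ratio of the cytosolic to the mitochondrial gene per kilobase of exon, within each library. Of 18 such pairs, 5 had both genes above 0 in all libraries. For phenylalanine, the ratio of Farsb to Fars2 was 0.76 and 1.06 in excitatory and 3.64 and 3.61 in inhibitory libraries, and for glutamate the ratio of Eprs to Ears2 was 0.99 and 1.16 against 2.90 and 2.17. In both pairs the cytosolic gene was further above the mitochondrial one in inhibitory libraries. For isoleucine the order was the other way, with the ratio of Iars to Iars2 at -0.22 and 1.10 against -1.68 and -1.41. The ratio of Tars to Tars2 did not separate the groups, at -4.01 and -4.05 against -4.53 and -3.75, so that Tars2 stood above Tars per kilobase in every library. That of Yars to Yars2 was 0.60 and 0.062 against -0.036 and -1.64. The cytosolic gene was the higher one in every library in 2 of the 5 pairs, and in 1 when the values were not divided by length or when the longest coding transcript gave the length.

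**Figure D3:**
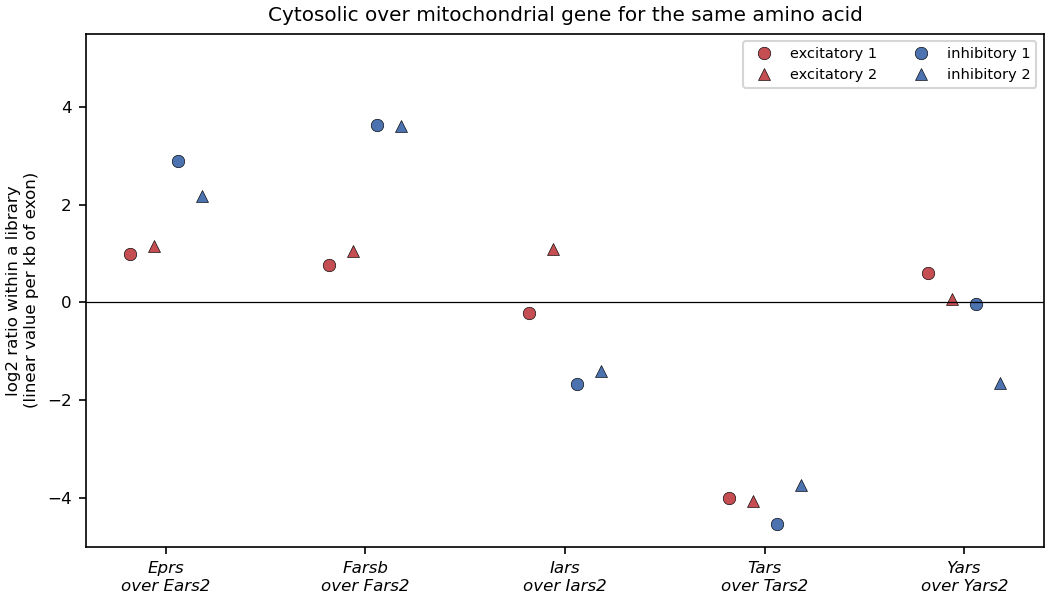
Log2 ratio of the cytosolic to the mitochondrial synthetase gene for the same amino acid (y axis, linear values per kilobase of exon), 1 symbol per library, for the 5 pairs above 0 in all 4 libraries. The excitatory libraries lie below the inhibitory ones for Eprs over Ears2 and Farsb over Fars2, and above them for Iars over Iars2 and Yars over Yars2.

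Genes that work beside the synthetases were described from lists chosen for their function. Of 16 partners, which include tRNA-modifying and editing enzymes, 13 reached 1 in both groups: 7 were higher in excitatory and 2 in inhibitory libraries, and 2 and 2 after scaling, beside 44.2% and 21.8% of all such genes (29% and 29.9% after scaling). The 7 came to 1 without excitatory 1 or inhibitory 1 and to 2 without excitatory 2 or inhibitory 2. Qrsl1 and Gatc encode subunits of the mitochondrial amidotransferase that makes glutaminyl-tRNA in place of a mitochondrial glutaminyl synthetase. Qrsl1 had deposited values of 0 and 1.32 against 10.22 and 9.57, and Gatc 8.61 and 9.10 against 11.28 and 11.01 (difference -2.30, adjusted p = 0.00145). Both were higher in inhibitory libraries and make up the 2 partner calls there. Qrsl1, like Pars2, met the filter through its higher group by itself. The third subunit gene, Gatb, was listed at 0 in all 4. The call of Gatc was lost without inhibitory 1 (adjusted p = 0.0617) or inhibitory 2 (0.0534). Sepsecs, which completes selenocysteinyl-tRNA, was listed at 0 in the excitatory pair and had 5.55 and 6.13 in inhibitory ones. Trnt1, which adds the CCA end of tRNA, was higher in excitatory libraries, at 12.48 and 12.86 against 11.20 and 11.002 (difference 1.57, adjusted p = 0.00184; scaled 1.03, adjusted p = 0.0137), with the call lost without inhibitory 1 (adjusted p = 0.0586) or inhibitory 2 (0.0666).

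Of 11 elongation factor genes, 10 reached 1 in both groups, and 7 were higher in excitatory and 1 in inhibitory libraries, where 44.2% and 21.8% of all such genes were called. The inhibitory call, on both scales, was that of Tsfm, which like Pars2 met the filter through its higher group by itself. After scaling the counts were 0 and 1, when no gene higher there had an unadjusted p below 0.05 either (lowest 0.0629, for Tufm). Leaving out any of the 4 libraries brought the 7 to 4. Eef1a1, which delivers charged tRNA to the cytosolic ribosome, had deposited values of 16.75 and 16.72 against 16.28 and 16.28. Its difference of 0.46 (adjusted p = 0.00118) turned to -0.085 after scaling (adjusted p = 0.273), and that of Eef2, the translocase, went from 0.67 (adjusted p = 0.00152) to 0.13 (adjusted p = 0.294). Both lay near the shift of the median gene. Among mitochondrial factors, Tsfm and Guf1 lay higher in inhibitory libraries. Tsfm, the exchange factor of the mitochondrial delivery factor, had 0 and 1.90 against 11.26 and 10.99. Guf1 was listed at 0 in both excitatory libraries against 7.66 and 7.995. The other mitochondrial factors of the list, named for this comparison, had no call in that direction. Tufm (0.98, adjusted p = 0.00410) and Gfm1 (0.67, adjusted p = 0.0217) were higher in excitatory libraries, though neither passed after scaling (0.43 and 0.13). Gfm2 did not pass on either scale (-0.21 and -0.75).

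Of 27 genes of the integrated stress response, 16 reached 1 in both groups, and 9 were higher in excitatory and 6 in inhibitory libraries (5 and 6 after scaling), beside 44.2% and 21.8% of all such genes (29% and 29.9%). The 9 came to 6 without inhibitory 1. Atf4 had deposited values of 13.53 and 13.29 in excitatory and 10.88 and 11.13 in inhibitory libraries, a difference of 2.40 ± 0.17 (adjusted p = 0.000320; scaled 1.86, adjusted p = 0.000562). Asns, an amino acid synthesis gene and ATF4 target, had 11.82 and 11.55 against 5.08 and 4.85 (difference 6.72, scaled 6.19). Shmt2, of mitochondrial serine metabolism, had 12.61 and 12.67 against 5.81 and 5.33 (difference 7.07, scaled 6.53). These 3 genes were higher in excitatory libraries without overlap. In the opposite direction, Cth, of cysteine synthesis, was listed at 0 in both excitatory libraries against 10.57 and 10.23, and Ppp1r15a, which directs eIF2α dephosphorylation, was listed at 0 against 9.34 and 9.08. Chac1, another ATF4 target, had 0 and 0.35 against 9.24 and 8.58, and Cebpb 4.77 and 4.69 against 9.57 and 9.85. Atf4, Ddit3, Chac1 and Cebpb were picked for display after their values were seen.

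The 5 synthetase genes with a TGATGNAA match (Aars, Gars, Iars, Tars and Yars, printed above) were set beside Atf4 and Asns. On deposited values 4 had positive differences, from 0.53 to 1.15, and Iars -0.76. In the fit of the 13619 genes none of them passed limma's test on the deposited scale, Yars alone having an unadjusted p below 0.05 (0.0464). Yars did pass with a mean of at least 5 (adjusted p = 0.0331), a pseudocount of 16 (0.0481) or a replicate block (0.0109). After scaling, Iars passed, higher in inhibitory libraries. The windows of 6 genes of the stress response list held the motif (Asns, Atf3, Chac1, Nupr1, Pycr1 and Trib3). Of these Asns was higher in excitatory and Nupr1 in inhibitory libraries (difference -1.40), the latter call being lost without any of the 4 libraries (adjusted p = 0.0544 to 0.159). Atf3 was listed at 0 in both excitatory libraries against 5.44 and 4.13, Chac1 was near 0 there, and Pycr1 and Trib3 were not tested.

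**Figure D4:**
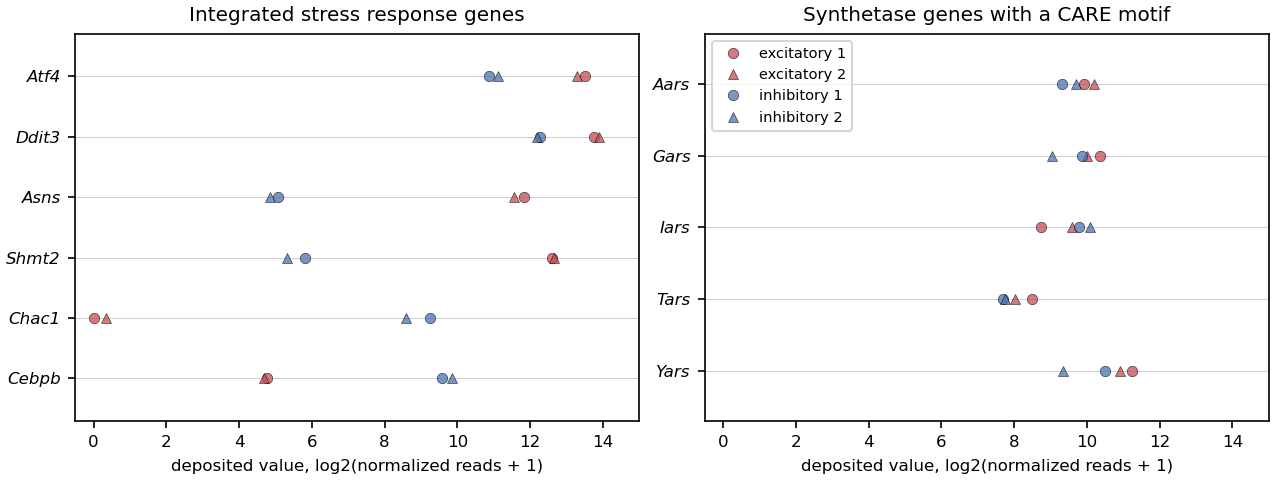
Deposited value (x axis, log2 of normalized reads plus 1) of 6 integrated stress response genes (left) and of the 5 synthetase genes with a CARE motif in the promoter window (right), 1 symbol per library. Atf4, Ddit3, Asns and Shmt2 are higher in both excitatory libraries and Chac1 and Cebpb in both inhibitory ones, whereas the synthetase genes have differences between -0.76 and 1.15.

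Of 16 amino acid transporter genes, 11 reached 1 in both groups: 5 were higher in excitatory and 2 in inhibitory libraries (5 and 3 after scaling), beside 44.2% and 21.8% of all such genes (29% and 29.9%). The 5 came to 3 without excitatory 2. Slc7a5, the large neutral amino acid transporter LAT1, was listed at 0 in both excitatory libraries against 7.89 and 8.26. Slc7a8, which encodes the related LAT2, had 4.96 and 5.11 against 9.34 and 9.44 (difference -4.36, adjusted p = 0.000250). Both were higher in inhibitory libraries, but Slc7a5 entered the test through that group by itself. Slc38a2, a glutamine and alanine carrier, had 12.60 and 12.57 against 10.51 and 10.25 (difference 2.21, adjusted p = 0.000410; scaled 1.66). Slc1a4, for alanine, serine and cysteine, had 10.17 and 9.99 against 7.92 and 8.20 (difference 2.01, adjusted p = 0.00167; scaled 1.47). These last 2 genes were higher in excitatory libraries on both scales.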

How the data were processed

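Per the labels' protocols, fluorescent cells were lysed in pools of 100, cDNA was made with the SMART-seq v4 kit and libraries with Nextera XT. The authors deposited 1 log2 value per gene and library, the log2 of normalized reads plus 1; base and added 1 were inferred from the spacing of low values. TopHat, edgeR and mm10 are named in the submitters' processing notes without versions or roles; their normalization and counting steps are not stated there. Estimated reads are linear values divided by that spacing (1.29, 1.23, 0.72 and 0.874), so no counting interval was computed.

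The deposited values were tested with limma 3.58.1 in R 4.3.3 (mean-variance trend, 2 residual and 2.56 prior degrees of freedom) on 13619 genes with at least 1 in at least 2 libraries; the method was checked on simulated data. Since the files hold log2 values, no count model was run. Alternatives were scaling by median of ratios or by upper quartile, no filter, a mean of at least 5, a pseudocount of 16, no trend, a replicate block and each library left out, with the tested genes kept and a lone library assumed to vary like the others. Genes with at least 1 in both groups and longest-transcript lengths were alternatives chosen after seeing the data. Exon lengths, overlaps and coordinates came from GENCODE M21 on the same build.

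All synthetase genes could be named; from each pathway list up to 4 genes past the threshold with the smallest p were named, with the exceptions stated. The members and lists were chosen with earlier results of these data known. A further member of the set and a further promoter match are not reported here; both are included in the counts.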

Additional observations from a re-analysis of the deposited data

How the results depend on the processing

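Of the counts of calls, that of cytosolic genes higher in the inhibitory libraries was 4, fell to 2 among genes reaching 1 in both groups (a filter chosen after seeing the data), and ranged from 2 to 4 with a library left out. Under that filter the mitochondrial counts of 5 higher in excitatory and 6 higher in inhibitory became 3 and 2; the latter was 3 with a mean of at least 5. Over all genes, 6122 higher in excitatory ranged from 3530 to 4241, and 3655 higher in inhibitory from 2310 to 2627, with a library left out; the latter was 2317 with a mean of at least 5. Under median-of-ratios and upper-quartile scaling alike, genes higher in excitatory went from 7 to 2 for synthetase partners, 7 to 0 for elongation factors and 9 to 5 for the stress response. Without the trend, partners and elongation factors had 4 each. With a library left out, partners ranged from 1 to 2, elongation factors stayed at 4, and transporters higher in excitatory ranged from 3 to 4. Stress response genes higher in inhibitory numbered 11, or 7 with a mean of at least 5, 6 with 1 in both groups, and 6 to 8 with a library left out; elongation factors higher in inhibitory went from 2 to 1 under both filters. The cytosolic median difference of 0.54 became 0.0024 and 0.022 under the 2 scalings and ranged from 0.29 to 0.70 with a library left out. The mitochondrial median of -0.016 became -0.56 and -0.54 under the scalings, -0.61 without a filter, and 0.68 under each of the 2 stricter filters, which test fewer genes. Pairs with the cytosolic gene higher in every library went from 2 to 1 without length and with the longest transcript. Differences that changed sign, none past the threshold, were those of Dars (-0.27 and -0.25 under the 2 scalings), Sars (-0.074 and -0.055), Tars2 (-0.12 and -0.10) and Tars (-0.015, median-of-ratios). With a library left out, Qars ranged from -0.31 to 0.22, Vars from -0.69 (without excitatory 1) to 6.56, and Yars2 from -0.25 to 0.22. The causes of these shifts were not tested except where fewer genes were tested. The replicate numbers did not pair the libraries (correlation of deviations -0.00193 across genes). With the replicate block, 6094 and 3688 genes were called, and Hars, Sars and Yars were among those that passed (adjusted p = 0.0488, 0.0398 and 0.0109). The call of Wars2 was lost there, but that gene entered the test through a single group and rests on few reads. Depth limits the genes with few estimated reads.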
